A study of Mus musculus with 504 samples.

Results

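P05 is the population of mCherry-positive, EpCAM-negative cells sorted from mammary tumours of the Tnc-CreERT2 line. Its libraries were chosen by the sample titles and by the deposited quality label, and they were set against P18, the mCherry-high, EpCAM-high population of the same tumours. The 60 P05 wells gave 32 libraries that passed, of 504 wells in the whole series, and P18 gave 55. They come from the same 5 mice, TENA2462, TENA2483, TENA2517, TENA2524 and TENA2560, and values of the 5 mice are given in that order throughout. P05 had 6, 10, 3, 5 and 8 libraries in these mice, and P18 had 12, 12, 8, 11 and 12.

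Both populations carry the same alleles, Tnc-CreERT2, MMTV-Flpo, RC::FrePe and MMTV-PyMT, and both come from mice given 2 mg of tamoxifen 2 times a week from 9 weeks of age until tumours were taken at 13 to 14 weeks. In these mice the polyoma middle T oncogene, driven by the MMTV promoter, gives mammary tumours, and a Flp recombinase under the same promoter labels the tumour lineage with mCherry. A Cre recombinase driven by the gene of tenascin C switches a labelled cell from mCherry to GFP, and P05 and P18 were both sorted on mCherry. The design text separates P05 and P18 by mCherry as well as by EpCAM, whereas the tags of the single samples give mCherry as high in both. The labels name no untreated mice. The source label speaks of cell lines derived from tumours and the growth protocol of cells sorted from tumours. Each library is a pool of 5 cells made by Smart-seq2, which copies full-length polyadenylated RNA and has no molecular identifiers.

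In an epithelial-to-mesenchymal transition a cell gives up the junctions and keratins of an epithelium and takes up a mesenchymal cytoskeleton, matrix production and motility. The transcription factors of the Zeb, Snail and Twist families drive this change in part by binding E-boxes in the promoters of junction genes and repressing them. Fibroblasts, pericytes and other stromal cells of a tumour make the same collagens and cytoskeletal proteins as a matter of course, and macrophages are the main leukocytes of many mammary tumours.

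P05 libraries held fewer genes than P18 libraries. The median number of genes with a read per library averaged 7587 ± 1171 over mice in P05 and 14326 ± 581 in P18 (SD, n = 5), a difference of -6738, lower in 5 of 5 mice. An exact two-sided sign-flip permutation test over the 5 mice gave p = 0.0625, the smallest p that 5 pairs allow. Passed P05 libraries held 1046829 to 6752810 counts and P18 libraries 3232190 to 13414012, so that a gene at 0 in P05 had less depth behind it. Summed over a mouse, P05 held 9257240 to 38871000 counts and P18 54437500 to 102662000. In a pool of cells, fewer cells of a type and less RNA per cell cannot be told apart, and both the number of genes and each level below are of the pool.

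P05 libraries held more RNA of collagens, elastic fibres, small proteoglycans, the mesenchymal filament vimentin and smooth muscle actin than P18 libraries, along with markers of fibroblasts and myeloid cells. They held less RNA of claudins, a simple keratin, an epithelial protease and a protease inhibitor. Counts were summed per mouse and population and tested across 33768 genes with edgeR's quasi-likelihood test, with the mouse as a block, and a gene is called where its Benjamini-Hochberg adjusted p is below 0.05. Levels are CPM, counts of a gene per 1000000 counts of a sum after TMM scaling, and can be set against each other between populations but not between genes, since they are not per length. Of the genes tested, 119 (0.352%) were called higher in P05 and 65 (0.192%) lower, and the median log2 fold change over all genes was -0.15. With RLE scaling in place of TMM that median was 0.17, and 177 genes were called higher and 54 lower. All 65 were lower in 5 of 5 mice, and of the 119, 58 were higher in 5 of 5 and 55 in 4 of 5. The 5 sums of P05 lay wholly above those of P18 for 403 genes (1.19%) and wholly below them for 1965 (5.82%).

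The number of calls fell when any 1 mouse was left out. Without TENA2462 it was 0 higher and 1 lower, without TENA2483 it was 3 and 4, without TENA2517 55 and 31, without TENA2524 0 and 1, and without TENA2560 2 and 0. TENA2524 was sequenced in another lane than the other 4 mice, so without it the P05 and P18 libraries are of 1 lane. P05 and P18 of a mouse share a lane, so the comparison within mice is also within a lane with all 5 mice in. All 184 called genes kept their direction in each of these 5 fits. None of the 62 called genes given by the naming rule was called in all 5, and a model limited to the P05 and P18 sums, which tested 117 of the 184, called 2 genes higher and 0 lower.

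The sort markers and the driver of the switch were read first. Epcam (chromosome 17, 87635979 to 87651129, GRCm38), the gene of the epithelial surface protein used in the sort, had 131, 39.5, 821, 144 and 8.99 CPM in P05 against 4396, 4235, 4531, 3421 and 6275 CPM in P18. The groups did not overlap, TENA2517 was the highest P05 mouse, and the difference missed the threshold (edgeR adjusted p = 0.056). Cdh1, which encodes E-cadherin, had 27.0, 0.0385, 0, 72.3 and 21.3 CPM in P05 and 216, 163, 113, 105 and 163 CPM in P18, again without overlap and without a call (adjusted p = 0.352). Tnc had 33.6, 68.5, 0.0947, 131 and 8.60 CPM in P05 and 4.52, 0, 0.32, 0.641 and 2.28 CPM in P18, and reached 10 CPM in 8 of 32 P05 libraries, none of them from TENA2517, and in 2 of 55 P18 libraries (adjusted p = 0.288). Cdh2, which encodes N-cadherin, had 0, 10.4, 0, 0 and 2.95 CPM in P05 and 0 to 0.271 CPM in P18 (adjusted p = 0.442), and 3 of 5 P05 mice held no read of it. Ptprc, which encodes the leukocyte surface protein CD45, had 0.147, 107, 112, 205 and 0 CPM in P05 and 0 reads in P18. It was high in the 3 mice TENA2483, TENA2517 and TENA2524 alone, and missed the threshold (adjusted p = 0.0549).

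The fibrillar collagens, the rods of connective tissue, were higher in P05. Of 7 genes on that list 4 were called, beside 0.352% of all genes, and the median log2 fold change of the list was 11.94. Col1a1 (chromosome 11, 94936224 to 94953042), the chain that makes up most of type I collagen, had 4014, 2888, 11.2, 716 and 3531 CPM in P05 against 0.0589, 0.479, 0.0888, 0.242 and 1.07 CPM in P18. The groups did not overlap, but TENA2517 lay far below the other 4 P05 mice. The difference was a log2 fold change of 12.89 ± 2.15, adjusted p = 0.0107, higher in 5 of 5 mice. For a log2 fold change ± is an approximate standard error, its size divided by the square root of the test's F statistic. Col1a2, the second chain of type I collagen, had 2785, 2124, 0, 687 and 2650.2 CPM in P05 against 0.0147, 0, 0.071, 0.0121 and 0.256 CPM in P18 (a log2 fold change of 13.54 ± 2.74, adjusted p = 0.0325). Col3a1, the chain of type III collagen, had 4729.8, 1644, 0, 685 and 3209 CPM in P05 against 0, 0, 0.764, 0 and 0 CPM in P18 (a log2 fold change of 15.26 ± 3.24, adjusted p = 0.0325). In both, the 3 libraries of TENA2517 held no read in P05 and the other 4 mice lay above all P18 mice. Col5a2, a chain of type V collagen, which helps to start type I fibrils, had 364, 256, 1.52, 51.2 and 319 CPM in P05 against 0, 0, 0, 0.302 and 1.85 CPM in P18 (a log2 fold change of 11.94 ± 1.83, adjusted p = 0.0107), higher in 5 of 5 mice with an overlap through TENA2517 and the P18 value of TENA2560. The list held 0 calls without TENA2462 or TENA2524, 1 without TENA2483 or TENA2560 and 4 without TENA2517. Summed over the list, P05 held 12211, 7157, 35.6, 2229 and 10066 CPM and P18 19.5, 32.1, 81.8, 5.66 and 67.9 CPM.

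**Figure D1:**
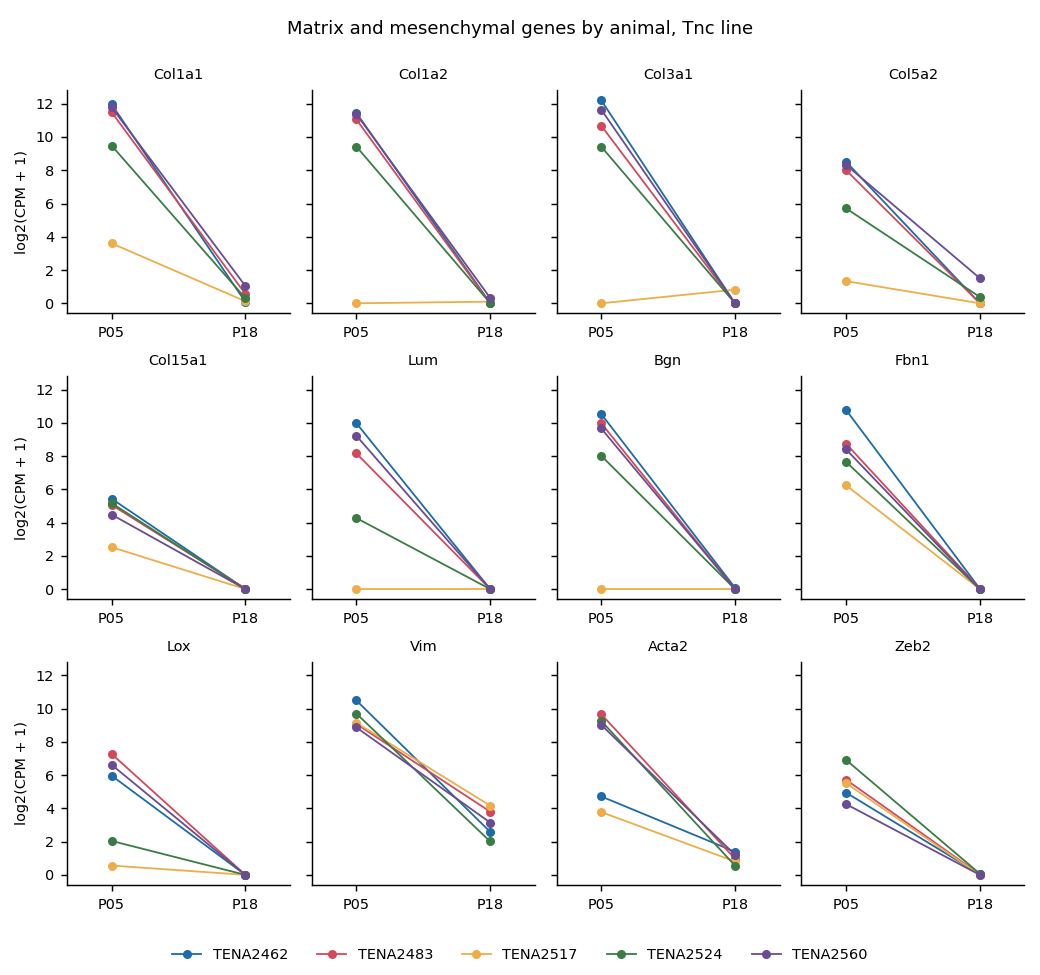
Levels of 12 matrix and mesenchymal genes called higher in P05, as log2(CPM + 1) of the summed libraries of each mouse, with P05 at the left and P18 at the right of each panel and a line for each of the 5 mice. The line of TENA2517 lies at or near 0 in both populations for Col1a2, Col3a1, Lum and Bgn, and runs with the other mice for Vim and Zeb2.

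Of the 10 other collagens 5 were called higher (list median 10.21). Col6a1, a chain of the beaded filaments of type VI collagen, had 439.6, 516, 0, 197 and 307 CPM in P05 and 0 reads in P18 (a log2 fold change of at least 14.93, adjusted p = 0.0442). Its partner chain Col6a2 had 739, 448, 0, 582 and 396 CPM in P05 and 0 reads in P18 (a log2 fold change of at least 15.36, adjusted p = 0.0232). Both lacked reads in P05 of TENA2517. Such bounds place 3 counts over the 5 sums in place of 0 and cover counting error only. Col14a1, a collagen that lies along fibrils, had 270.4, 51.6, 0.0947, 13.3 and 189 CPM in P05 and 0 reads in P18 (a log2 fold change of at least 13.40, adjusted p = 0.0277), and all 5 P05 mice held it. Col15a1, a collagen of the basement membrane zone, was more even, with 42.2, 32.4, 4.74, 34.9 and 21.3 CPM in P05 against 0, 0.0208, 0, 0 and 0 CPM in P18 (a log2 ratio of pooled counts of 12.94, exact 95% interval 10.46 to 18.24, adjusted p = 0.0465). Col8a1, a short-chain collagen, had 136, 593, 0, 134 and 36.4 CPM in P05 and 0 to 0.0589 CPM in P18 (a log2 fold change of 12.95 ± 2.75, adjusted p = 0.0325). Col4a1, a chain of basement membrane collagen, was not called, with 87.6, 197, 85.7, 126 and 399 CPM in P05 and 0 to 3.21 CPM in P18 without overlap (adjusted p = 0.127).

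The elastic fibre genes followed, with 3 of 12 called higher (list median 6.57). Fbn1, which encodes fibrillin 1, the backbone of microfibrils, and overlaps Gm9913, had 1747, 426, 74.5, 200.2 and 337 CPM in P05 against 0.0147, 0.0208, 0, 0 and 0 CPM in P18. All 5 P05 mice held it, TENA2517 included, and the groups did not overlap (a log2 ratio of pooled counts of 16.14, exact 95% interval 14.29 to 19.19, adjusted p = 0.0232). Mfap4, a microfibril-associated gene that overlaps Mapk7, had 114, 92.4, 0.189, 48.4 and 224 CPM in P05 against 0.0208 to 0.194 CPM in P18 (a log2 fold change of 9.86 ± 1.72, adjusted p = 0.016). Mfap5, another microfibril gene, had 3658, 662, 0, 378 and 469.5 CPM in P05 against 0 to 0.0111 CPM in P18 (a log2 ratio of pooled counts of 17.98, exact 95% interval 15.50 to 23.28, adjusted p = 0.0231). In both, TENA2517 lay at or near 0 in P05. Eln, the elastin gene, was not called, with 496, 1013, 0.0947, 393 and 644 CPM in P05 and 0.545, 20.5, 2.04, 9.08 and 7.05 CPM in P18 (adjusted p = 0.0586), and TENA2517 was its only P05 mouse below P18.

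Small leucine-rich proteoglycans, which coat and space collagen fibrils, made up the called members of the proteoglycan list, 3 of 9 (list median 9.68). Bgn, the biglycan gene, had 1477, 1004, 0, 258 and 808 CPM in P05 against 0.0589, 0, 0, 0 and 0 CPM in P18 (a log2 fold change of 16.17 ± 2.70, adjusted p = 0.0231). Lum, the lumican gene, had 1004, 285, 0, 18.3 and 595 CPM in P05 and 0 reads in P18 (a log2 fold change of at least 15.24, adjusted p = 0.0232), and Aspn, the asporin gene, had 256, 31.5, 0, 17.7 and 22.5 CPM in P05 against 0 to 0.0363 CPM in P18 (a log2 ratio of pooled counts of 12.34, exact 95% interval 10.80 to 14.62, adjusted p = 0.0341). For all 3 the P05 libraries of TENA2517 held no read. Aspn lies within Cenpp on the other strand, and reads of the pair cannot be told apart where counting took no account of strand. Dcn, the decorin gene, showed 3029, 289, 0, 235 and 852 CPM in P05 and 0, 0, 0, 6.00 and 0 CPM in P18 and was not called (adjusted p = 0.156).

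Genes that process and crosslink collagen were called for 2 of 12 (list median 5.62). Lox, which encodes the lysyl oxidase that crosslinks collagen and elastin, had 61.6, 154, 0.474, 3.12 and 97.5 CPM in P05 and 0 reads in P18 (a log2 fold change of at least 12.92, adjusted p = 0.0277). Rcn3, which encodes a calcium-binding protein of the endoplasmic reticulum, had 599, 240.3, 60.2, 11.7 and 198 CPM in P05 against 0, 0.0208, 0, 0 and 0 CPM in P18 (a log2 ratio of pooled counts of 15.94, exact 95% interval 13.46 to 21.24, adjusted p = 0.0232). Gm45669, an antisense transcript that overlaps Rcn3, was called higher as well. The related oxidases Loxl1 and Loxl2 were not called. Loxl1 had 504, 209, 0, 80.8 and 231 CPM in P05 and 0 to 1.48 CPM in P18 (adjusted p = 0.0686). Loxl2 had 504, 29.9, 15.0, 4.09 and 14.3 CPM in P05 and 0 to 1.40 CPM in P18 (adjusted p = 0.0866). Of 19 matrix proteases and inhibitors Adamts2, which trims procollagen, was the 1 called, with 92.9, 115, 0, 10.3 and 122 CPM in P05 and 0 reads in P18 (a log2 fold change of at least 12.96, adjusted p = 0.0325). Mmp2 and Mmp14, a gelatinase and the membrane protease that activates it, lay above P18 in 5 of 5 mice without a call. Mmp2 had 1030.4, 439.8, 11.2, 694 and 463 CPM in P05 and 0 to 2.96 CPM in P18 (adjusted p = 0.107). Mmp14 had 69.9, 116, 22.2, 109 and 118 CPM in P05 and 0.0445 to 9.78 CPM in P18 (adjusted p = 0.0686). Timp1, an inhibitor of these proteases, had 401, 273, 0, 269 and 172 CPM in P05 and 8.66, 21.5, 18.4, 47.0 and 20.3 CPM in P18 (adjusted p = 0.423).

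Among 13 matricellular and adhesive glycoproteins Nid1, Tgfbi and Fstl1 were called higher (list median 7.24), and they peaked in different mice. Nid1, which links the laminin and collagen networks of basement membranes, had 464, 40.4, 17.0, 17.1 and 72.9 CPM in P05 and 0 reads in P18 (a log2 fold change of at least 13.27, adjusted p = 0.0325). Fstl1, a secreted glycoprotein of mesenchymal cells, had 3120.2, 469, 0.0947, 128 and 671 CPM in P05 against 0 to 0.0417 CPM in P18 (a log2 fold change of 16.36 ± 3.43, adjusted p = 0.0325). Both were highest in TENA2462. Tgfbi, a matrix protein induced by TGF-beta, had 1.10, 132, 95.6, 513 and 0.0996 CPM in P05 against 0 to 0.0208 CPM in P18 (a log2 ratio of pooled counts of 15.16, exact 95% interval 12.68 to 20.47, adjusted p = 0.0325), and was near 0 in TENA2462 and TENA2560. Without the Ptprc libraries Tgfbi was not called (log2 fold change 7.03, adjusted p = 0.235). Fn1, the fibronectin gene, had 1573, 382, 9.38, 128 and 460.4 CPM in P05 and 0.0222 to 4.07 CPM in P18 without overlap, and Postn, the periostin gene, had 2172, 1065, 0, 496 and 1703 CPM in P05 and 4.01, 0, 7.42, 1.23 and 0.767 CPM in P18. Neither was called (adjusted p = 0.0932 and 0.287). At an unadjusted edgeR p below 0.05, 10 of the 13 were higher and 2 lower, beside 2358 and 2119 of all 33768 genes. Of the 13, 1 was lower in 5 of 5 mice. Summed, the 13 genes came to 20002, 7853, 572, 7585 and 8372 CPM in P05 and 6686, 7523, 9027, 1956 and 12492 CPM in P18. The P05 sum was thus below that of P18 in TENA2517 and TENA2560.

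Vim and Acta2 were the called members among 13 mesenchymal cytoskeleton genes (list median 4.78). Vim, the intermediate filament of mesenchymal cells and of leukocytes, had 1434, 537, 564, 829 and 465 CPM in P05 against 5.01, 13.0, 16.9, 3.02 and 7.86 CPM in P18, high in every P05 mouse (a log2 fold change of 6.86 ± 1.55, adjusted p = 0.0341). It reached 10 CPM in 26 of 32 P05 libraries and 12 of 55 P18 libraries. Acta2, the smooth muscle actin of myofibroblasts, pericytes and myoepithelium, had 25.3, 809, 12.7, 611 and 518 CPM in P05 against 1.62, 0.958, 0.746, 0.472 and 1.31 CPM in P18, high in 3 mice and low in TENA2462 and TENA2517 (a log2 fold change of 8.74 ± 1.65, adjusted p = 0.0232). S100a4 and Lgals1, the genes of a calcium-binding protein and of galectin 1, were not called. S100a4 had 29.0, 56.6, 0, 27.9 and 50.0 CPM in P05 and 0.333 to 2.95 CPM in P18 (adjusted p = 0.322). Lgals1 had 1863, 892, 175, 666 and 856 CPM in P05 and 113 to 216 CPM in P18 (adjusted p = 0.0589).

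Of 3 mesenchymal cadherins Cdh11 was called, with 27.7, 88.2, 0.284, 0.454 and 16.4 CPM in P05 against 0.265, 0.125, 0.0888, 0.0847 and 0.167 CPM in P18 (a log2 fold change of 7.18 ± 1.48, adjusted p = 0.0277), but in TENA2517 and TENA2524 its P05 level stayed below 1 CPM. Cdh6 had 1.76, 5.73, 0, 0 and 0.232 CPM in P05 and 0 to 0.0178 CPM in P18 (adjusted p = 0.127). Of 8 transcription factors of the transition Zeb2 was called, with 29.8, 51.7, 44.6, 119 and 18.1 CPM in P05 against 0.0295, 0.0208, 0, 0.0484 and 0 CPM in P18, above all P18 mice in every P05 mouse (a log2 fold change of 11.13 ± 2.49, adjusted p = 0.0325). It reached 10 CPM in 8 of 32 P05 libraries, 4 of them with Col1a1, 4 with Ptprc and 6 with the macrophage receptor gene Csf1r at that level. Without the 7 P05 libraries with Ptprc at 10 CPM or more, the log2 fold change of Zeb2 was 8.53 and it was not called (adjusted p = 0.123). Zeb1 had 2.64, 32.2, 0, 1.95 and 58.2 CPM in P05 and 0.133, 0, 0, 1.50 and 0 CPM in P18 and was not called (adjusted p = 0.088). Snai1, the Snail gene, lay lower than P18 in every P05 mouse, with 1.47, 29.9, 0, 17.6 and 8.66 CPM in P05 and 36.0, 38.7, 37.8, 39.1 and 13.8 CPM in P18, with an overlap between mice and without a call (adjusted p = 0.649).

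Growth factor genes gave 2 calls among 21 of the PDGF, FGF, IGF and HGF list (median 5.19). Igf1, a growth factor of stromal cells, had 33.9, 31.1, 15.5, 4.35 and 38.2 CPM in P05 against 0 to 0.0625 CPM in P18 (a log2 ratio of pooled counts of 11.36, exact 95% interval 9.81 to 13.63, adjusted p = 0.0341). Igfbp6, which binds IGF-II, had 1011, 191, 0, 64.7 and 195 CPM in P05 and 0 reads in P18 (a log2 fold change of at least 14.63, adjusted p = 0.0325). The PDGF receptor gene Pdgfra had 46.9, 17.6, 0, 2.60 and 48.9 CPM in P05 and 0 to 1.39 CPM in P18 (adjusted p = 0.231). Pdgfrb had 9.70, 39.4, 0, 7.40 and 24.5 CPM in P05 and 0 reads in P18 (adjusted p = 0.07). Neither was called, and neither had a read in P05 of TENA2517. No gene was called of 17 TGF-beta and BMP, 16 Wnt and 12 integrin genes, with list medians of 1.51, 3.33 and 1.04. The 3 TGF-beta ligand genes overlapped between the populations. Tgfb1 had 0.115 to 8.93 CPM in P05 and 0.194 to 1.33 CPM in P18. Tgfb2 had 20.2 to 48.1 CPM in P05 and 15.2 to 30.1 CPM in P18. Tgfb3 had 16.2 to 67.5 CPM in P05 and 19.6 to 58.6 CPM in P18. Itga5, the fibronectin receptor chain, had 73.2, 34.9, 3.69, 267 and 96.6 CPM in P05 and 0 to 0.383 CPM in P18, without overlap and without a call (adjusted p = 0.0871). Its partner Itgb1 had 89.6 to 237 CPM in P05 and 65.0 to 167 CPM in P18. The vitronectin receptor chain Itgav had 25.1 to 70.4 CPM in P05 and 12.3 to 27.0 CPM in P18. Of the Wnt ligands, Wnt5a had 0 to 24.2 CPM in P05 and 0.177 to 3.06 CPM in P18. Wnt7b had 0 to 0.0332 CPM in P05 and 1.02 to 15.8 CPM in P18, and Wnt4 was at most 0.0735 CPM in P05 and 0.0363 CPM in P18.

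Epithelial genes were lower in P05, in the same direction in every mouse for each of the 7 that were called from the lists. Of 16 tight junction genes Cldn4 and Cldn7 were called, beside 0.192% of all genes (list median -3.78). Cldn4 (chromosome 5, 134945119 to 134946934), a claudin that seals the space between epithelial cells, had 31.4, 0, 0, 0 and 0.232 CPM in P05 against 3009, 2166, 2594, 1262 and 3842 CPM in P18 (a log2 fold change of -11.42 ± 2.15, adjusted p = 0.0232). The related claudin Cldn7 had 9.70, 15.7, 5.68, 21.3 and 0 CPM in P05 against 731, 1006, 973, 609 and 1093 CPM in P18 (a log2 fold change of -6.36 ± 1.28, adjusted p = 0.0277). For both the groups lay far apart, and in P05 Cldn4 came from TENA2462 for nearly all its reads. Cldn3 was not called, with 34.7, 33.0, 265, 115 and 91.3 CPM in P05 and 1352, 1097, 1179, 684 and 1601 CPM in P18 (adjusted p = 0.0866). Krt8, a keratin of simple epithelia, had 87.6, 5.42, 238, 51.5 and 13.2 CPM in P05 against 5242, 3775, 4863, 1925 and 4715 CPM in P18 (a log2 fold change of -6.10 ± 1.45, adjusted p = 0.0463). It was the 1 called of 4 simple keratins (list median -5.96). All 4 lay without overlap below P18, beside 5.82% of all genes tested. With RLE scaling, with no filter or without the Ptprc libraries 0 of the 4 were called. Krt8-ps, a pseudogene copy of Krt8, was called lower too, and reads may be shared between the pair. The partner keratin Krt18 had 106, 54.4, 235, 1.62 and 0 CPM in P05 and 4328, 3153, 5036, 1372 and 4711 CPM in P18. Krt19 had 21.9, 0, 12.5, 0 and 0 CPM in P05 and 576, 119, 289.7, 87.0 and 86.9 CPM in P18. Neither was called (adjusted p = 0.0681 and 0.142).

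The list of EpCAM, epithelial serine protease and protease inhibitor genes gave 2 calls among 7 genes (median -5.09). Spint1, which encodes a Kunitz-type inhibitor of matriptase, had 0.147, 0, 0, 1.69 and 0 CPM in P05 against 78.0, 72.0, 31.6, 37.9 and 44.3 CPM in P18 (a log2 fold change of -7.95 ± 1.57, adjusted p = 0.0277). Prss22, a tryptase of epithelia, had 0 reads in P05 and 62.4, 35.0, 135, 34.9 and 47.1 CPM in P18 (a log2 fold change of -11.18 or lower, adjusted p = 0.0325). Spint2, the sister of Spint1, was not called, with 64.1, 38.3, 148, 296 and 110.1 CPM in P05 and 719, 734, 734, 984 and 857 CPM in P18 (adjusted p = 0.0639). Of 16 epithelial transcription factors Tfcp2l1, of the grainyhead family, was called, with 0 reads in P05 and 4.67, 13.3, 15.9, 11.6 and 24.4 CPM in P18 (a log2 fold change of -9.14 or lower, adjusted p = 0.0396, list median -2.37). The ETS factor gene Ehf had 19.9, 28.5, 73.5, 191 and 7.53 CPM in P05 and 129.8, 151, 151, 168 and 189 CPM in P18, an overlap through TENA2524. Elf3, another ETS factor gene, had 0 to 25.9 CPM in P05 and 30.1 to 246 CPM in P18. The grainyhead gene Grhl2 had 0 to 3.15 CPM in P05 and 6.06 to 9.65 CPM in P18. Both lay without overlap below P18, and neither was called (adjusted p = 0.405 and 0.314). Of 13 luminal progenitor and milk genes Plet1, a surface protein of epithelial progenitors, was called (list median -4.14). It had 42.3, 20.0, 268, 300.1 and 4.91 CPM in P05 against 5366, 7439, 6151, 4816 and 7806 CPM in P18 (a log2 fold change of -5.71 ± 1.03, adjusted p = 0.0232), and Plet1os, which overlaps it on the other strand, was called as well (a log2 fold change of -5.70 ± 1.07, adjusted p = 0.0232). Lcn2 and Wfdc18, secreted proteins of luminal cells, lay below P18 without overlap and missed the threshold (adjusted p = 0.0586 and 0.0957). Lcn2 had 684, 373, 373, 709 and 147 CPM in P05 and 4630.2 to 8199 CPM in P18. Wfdc18 had 248, 17.2, 1949.7, 1039 and 42.8 CPM in P05 and 3193 to 11863 CPM in P18.

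No gene was called of 12 adherens junction and desmosome genes, 6 splicing regulators and 4 ErbB and Met receptors, with list medians of -2.15, 0.10 and -2.72. Jup, the plakoglobin gene, had 130.3, 79.0, 53.3, 240.3 and 73.2 CPM in P05 and 536, 454, 324, 293 and 387 CPM in P18 without overlap (adjusted p = 0.0952), and Dsp, the desmoplakin gene, 5.66, 5.92, 0, 44.0 and 0 CPM in P05 and 29.8, 15.4, 14.8, 67.0 and 16.1 CPM in P18. The epithelial splicing regulators Esrp1 and Esrp2 were at 0 or low in 2 or 3 mice and at the level of P18 in TENA2524. Esrp1 had 14.9, 0, 26.1, 39.5 and 0 CPM in P05 and 38.4, 36.0, 31.6, 35.0 and 41.1 CPM in P18. Esrp2 had 13.7, 1.88, 0, 36.2 and 0.431 CPM in P05 and 13.8, 19.2, 15.3, 28.4 and 13.0 CPM in P18. Rbm47 had 2.13, 13.7, 123, 60.6 and 11.5 CPM in P05 and 33.4, 57.7, 48.4, 52.3 and 70.3 CPM in P18. Egfr had 0 to 66.4 CPM in P05 and 15.4 to 26.0 CPM in P18. Erbb2 had 0 to 11.3 CPM in P05 and 10.9 to 19.7 CPM in P18. Erbb3 had 0 to 6.10 CPM in P05 and 13.8 to 20.0 CPM in P18.

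**Figure D2:**
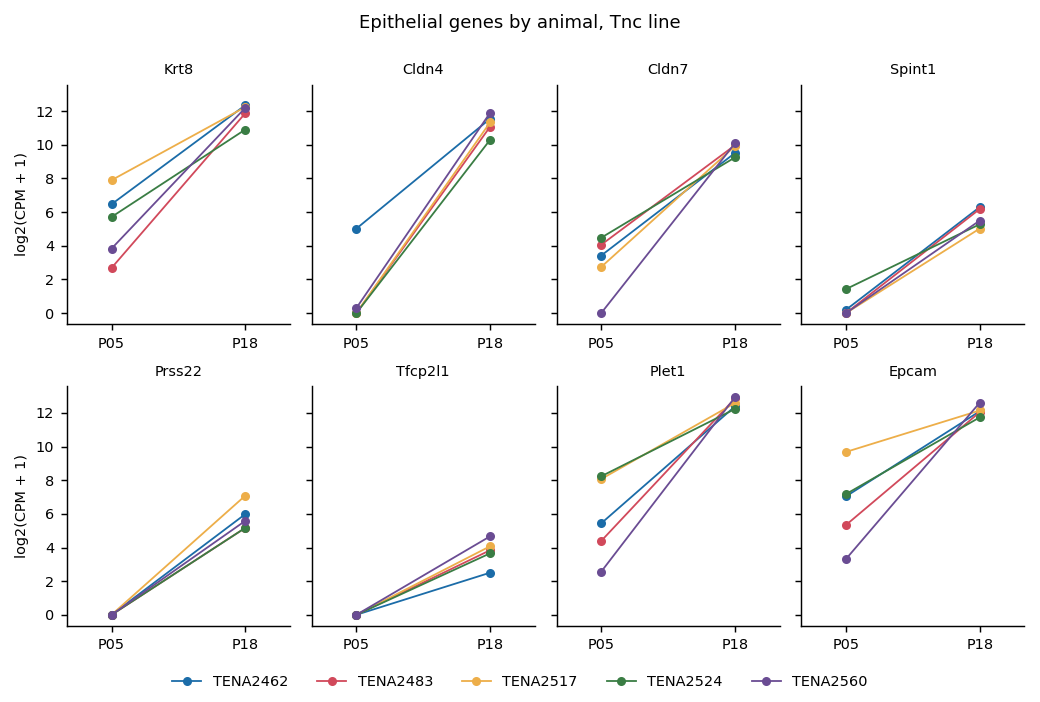
Levels of 8 epithelial genes, as log2(CPM + 1) of the summed libraries of each mouse, with P05 at the left and P18 at the right of each panel and a line for each of the 5 mice. Every line is higher in P18, Prss22 and Tfcp2l1 are at 0 in all 5 P05 sums, and Epcam, shown with the called genes, missed the threshold.

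The promoters of called epithelial genes are shown because Zeb2, called higher with all libraries but not without those with Ptprc, belongs to a family known to bind the E-box CAGGTG, which reads CACCTG on the other strand. The windows are RefSeq's on GRCm38.p6, from 250 bases before to 50 bases after the annotated start, 5′ to 3′ on the strand of the gene, and capitals mark each match of CAGGTG or CACCTG. Krt8 holds 1 match and Cldn4, Cldn7 and Tfcp2l1 hold 2 each. Cldn7 has 2 windows in the table, and the one shown holds the matches while the other holds 0. Of the other 3 list genes called lower, the window of Plet1 holds 1 match and that of Spint1 holds 0, and neither is printed. The third is Prss22.
Cldn4 (chr5:134946885-134947184, minus strand): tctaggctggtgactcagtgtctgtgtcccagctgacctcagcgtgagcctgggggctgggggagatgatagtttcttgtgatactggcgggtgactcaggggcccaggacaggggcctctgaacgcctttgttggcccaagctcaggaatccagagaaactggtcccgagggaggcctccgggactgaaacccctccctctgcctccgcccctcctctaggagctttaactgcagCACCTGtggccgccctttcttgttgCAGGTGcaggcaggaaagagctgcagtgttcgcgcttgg
Cldn7 (chr11:69965171-69965470, plus strand): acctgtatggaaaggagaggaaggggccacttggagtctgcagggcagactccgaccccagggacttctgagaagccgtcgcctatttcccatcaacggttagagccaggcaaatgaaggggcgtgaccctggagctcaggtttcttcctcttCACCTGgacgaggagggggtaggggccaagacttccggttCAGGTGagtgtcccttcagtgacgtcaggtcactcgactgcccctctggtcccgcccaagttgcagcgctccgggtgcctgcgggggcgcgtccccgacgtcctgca
Krt8 (chr15:102004293-102004592, minus strand): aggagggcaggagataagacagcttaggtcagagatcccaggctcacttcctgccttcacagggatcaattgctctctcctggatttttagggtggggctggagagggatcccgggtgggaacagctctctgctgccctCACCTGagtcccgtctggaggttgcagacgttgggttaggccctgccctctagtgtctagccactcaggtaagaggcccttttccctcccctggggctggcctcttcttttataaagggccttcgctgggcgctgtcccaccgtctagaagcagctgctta
Tfcp2l1 (chr1:118627695-118627994, plus strand): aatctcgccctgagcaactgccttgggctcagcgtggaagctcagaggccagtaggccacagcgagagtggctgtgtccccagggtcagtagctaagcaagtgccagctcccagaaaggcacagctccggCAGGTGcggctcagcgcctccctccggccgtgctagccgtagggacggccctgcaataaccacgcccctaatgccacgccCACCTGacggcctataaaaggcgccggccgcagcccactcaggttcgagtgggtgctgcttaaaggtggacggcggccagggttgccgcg

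Over all 27025 genes with a window 6098 (22.6%) held a match, and over all 32851 windows 6640 (20.2%). A match is a run of letters and not a shown binding site.

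Markers of fibroblasts were higher in P05 beside the matrix genes. Of 12 fibroblast markers 5 were called higher (median 12.22, or 11.07 with bounds in place of fits where P18 had 0 reads), Lum and Col14a1 among them. Dpt, the dermatopontin gene, had 1129.6, 38.9, 0, 18.8 and 72.6 CPM in P05 and 0 reads in P18 (a log2 fold change of at least 14.19, adjusted p = 0.0396). Cd34, a surface sialomucin of fibroblasts and endothelium, had 679, 13.1, 6.44, 14.5 and 36.0 CPM in P05 and 0 reads in P18 (a log2 fold change of at least 13.40, adjusted p = 0.0332). Islr, a marker of mesenchymal stromal cells, had 315, 84.0, 0, 4.61 and 93.3 CPM in P05 and 0 reads in P18 (a log2 fold change of at least 13.17, adjusted p = 0.0325), and its annotation overlaps that of Islr2. All 3 were highest in TENA2462. Pi16, of adventitial fibroblasts, had 634, 182, 0.0947, 30.0 and 109.7 CPM in P05 and 0 to 0.764 CPM in P18 (adjusted p = 0.124). Summed, the 12 markers came to 8113, 1053, 46.7, 354 and 2146 CPM in P05 and 365, 9.44, 101, 50.0 and 37.1 CPM in P18, above P18 in every mouse but TENA2517. Most of the P18 sum was Ly6a, a surface protein also found on epithelial progenitors, which had 772, 46.7, 0, 0.195 and 92.9 CPM in P05 and 365, 9.31, 100.2, 42.6 and 36.1 CPM in P18, whereas 6 of the 12 markers had 0 reads in P18. Whether fibroblasts in the pools set the level of matrix genes was not tested.

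Macrophage markers were high in P05 of 3 mice, TENA2483, TENA2517 and TENA2524, and low in the other 2. The 14 markers summed to 95.7, 10445, 5589, 17103 and 645 CPM in P05 and 702, 857, 1504, 1046 and 1329 CPM in P18. The P18 sum was nearly all Cd14, a receptor for bacterial lipopolysaccharide, with 60.8, 2673, 1474, 2570.4 and 88.9 CPM in P05 and 663, 845, 1484, 1038 and 1306 CPM in P18. Fcer1g and Itgam were called (list median 11.93), and 0 of the 14 were called once libraries with Ptprc were left out, or without any 1 mouse but TENA2517, where 5 were. Fcer1g, the signalling chain of Fc receptors, had 0, 447, 401, 436 and 37.5 CPM in P05 against 0 to 0.0726 CPM in P18 (a log2 fold change of 15.66 ± 2.99, adjusted p = 0.0325). Itgam, the integrin chain CD11b, whose gene overlaps Gm49368, had 0, 28.3, 5.02, 34.0 and 0.0332 CPM in P05 against 0 to 0.0178 CPM in P18 (a log2 ratio of pooled counts of 11.93, exact 95% interval 9.45 to 17.23, adjusted p = 0.0446). In both, TENA2462 held no read in P05. The defining markers were not called. Csf1r, the receptor of the macrophage growth factor, had 17.2, 553, 235, 315 and 21.6 CPM in P05 and 0 to 4.60 CPM in P18 (adjusted p = 0.0633). Adgre1, the F4/80 gene, had 0, 113, 87.5, 169 and 0.996 CPM in P05 and 0 reads in P18 (adjusted p = 0.0517). Cd68 had 8.60, 121, 194, 660.4 and 20.6 CPM in P05 and 34.5, 9.29, 17.1, 2.98 and 21.5 CPM in P18 (adjusted p = 0.359). The complement gene C1qb had 0, 1449, 1027, 2185 and 43.0 CPM in P05 and 0 to 1.76 CPM in P18 (adjusted p = 0.0586). In TENA2462, the P05 mouse with most collagen, Adgre1, C1qa, C1qb, C1qc, Fcer1g, Itgam and Lyz2 had 0 reads. Of 8 tested other leukocyte markers Lsp1 and Coro1a, actin-binding proteins of leukocytes, were called (list median 10.13). Lsp1 had 181, 122, 18.2, 544 and 51.2 CPM in P05 and 0 reads in P18 (a log2 fold change of at least 13.92, adjusted p = 0.0325), and reached 10 CPM in 18 of 32 P05 libraries. Without the Ptprc libraries Lsp1 was still called (log2 fold change 16.40, edgeR adjusted p = 0.0361). Coro1a, which overlaps Bola2, had 0, 230.3, 240.2, 591 and 2.42 CPM in P05 against 0 to 0.0417 CPM in P18 (a log2 ratio of pooled counts of 14.68, exact 95% interval 12.83 to 17.72, adjusted p = 0.0312), and was not called without the Ptprc libraries (adjusted p = 0.128).

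MHC class II genes, which present antigen on macrophages, dendritic cells and B cells, split the P05 mice in the same way. Their 7 genes summed to 16.5, 16562, 6876, 14018 and 56.3 CPM in P05 and 9.89, 27.8, 22.7, 15.3 and 29.7 CPM in P18, and 0 were called (list median 5.68). The antigen-binding chain gene H2-Aa had 0, 3503, 1339, 2931 and 0 CPM in P05 and 0 to 0.625 CPM in P18. H2-Ab1 had 0, 5301, 2309, 4219 and 0 CPM in P05 and 0 to 1.51 CPM in P18. H2-Eb1 had 4.78, 54.3, 34.9, 62.2 and 2.12 CPM in P05 and 0 to 1.60 CPM in P18. TENA2462 and TENA2560, the mice with the highest collagen sums, were the 2 without H2-Aa and H2-Ab1 reads in P05.

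Other cell types left fewer traces. The 10 endothelial markers summed to 27.4, 3.19, 424, 7.47 and 10.6 CPM in P05 and 1.37 to 3.16 CPM in P18, with TENA2517 alone high and 0 called. In that mouse Cdh5 stood at 68.6 CPM, Kdr at 52.0 CPM and Pecam1 at 27.9 CPM in P05. Pericyte and smooth muscle markers summed to 54.4, 29.4, 0, 24.2 and 24.4 CPM in P05 and 9.12, 25.4, 21.7, 18.2 and 35.6 CPM in P18, with 0 of 9 called, and the pericyte genes Rgs5, Kcnj8 and Abcc9 reached 10 CPM in 1, 1 and 4 of 32 P05 libraries. Of 9 tested lymphocyte markers 0 were called, with Cd3e and Cd3g at 0 in every P05 mouse and Cd4 in TENA2483 alone. The lymphocyte list summed to 19.3, 13.7, 0, 0.0649 and 0 CPM in P05 and 0.0111 to 0.786 CPM in P18. Of 5 adipocyte markers 0 were called. They summed to 7.79, 0.0385, 116, 0.325 and 0 CPM in P05 and 0 to 1.89 CPM in P18, highest in TENA2517. Adipoq and Cidec were at 0 in every P05 mouse, while Plin1 reached 7.79 CPM in TENA2462. Sox10, a factor of neural crest, Schwann cells and part of the mammary epithelium, had 23.8, 37.7, 51.1, 231 and 56.8 CPM in P05 and 69.5, 50.1, 38.4, 44.5 and 42.9 CPM in P18. Among 7 basal epithelial genes Jag2, a Notch ligand, was called higher, with 0.22, 33.5, 0, 148 and 13.4 CPM in P05 and 0 reads in P18 (a log2 fold change of at least 11.78, adjusted p = 0.0325). The basal keratins were not called. Krt14 had 23.2, 0, 0, 176 and 0 CPM in P05 and 254, 45.3, 55.4, 10.3 and 11.7 CPM in P18. Krt5 had 0 to 29.4 CPM in P05 and 0.363 to 2.46 CPM in P18. The basal factor Trp63 had 1.10, 33.5, 0, 0.0649 and 10.5 CPM in P05 and 0 to 1.23 CPM in P18.

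**Figure D3:**
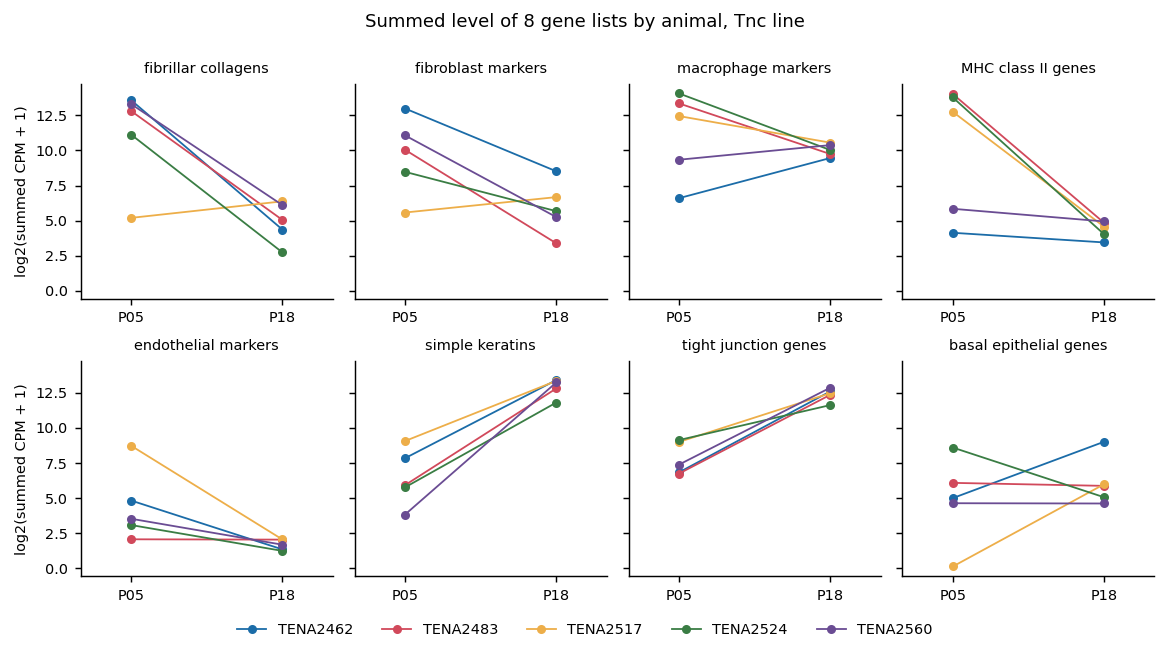
Summed level of 8 gene lists, as log2(summed CPM + 1) of each mouse, with P05 at the left and P18 at the right of each panel and a line for each of the 5 mice. TENA2517 is lowest in P05 for fibrillar collagens and fibroblast markers and highest for endothelial markers, while TENA2462 and TENA2560 are lowest for macrophage markers and MHC class II genes.

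Single libraries show how these genes were spread over the pools of 5 cells. At 10 CPM or more, Col1a1 was in 16 of 32 P05 libraries, Acta2 in 12, Krt8 in 10 and Ptprc in 7. Of the 32, 5 held Col1a1 alone of these 4 genes, 6 held Col1a1 with Acta2, 3 held Acta2 alone, 4 held Ptprc alone and 3 held none of the 4. Col1a1 and Ptprc met in 1 library, and Acta2 and Ptprc in 0. Krt8 was shared with Col1a1 in 4 libraries, and 6 of the 10 Krt8 libraries also held Epcam at that level. In P18 Krt8 and Epcam reached 10 CPM in 55 of 55 libraries, Col1a1 in 1, and Acta2 and Ptprc in 0.

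The matrix genes met in the same P05 libraries, and the contractile genes met in part of these and in others. Dcn reached 10 CPM in 12 libraries and Pdgfrb in 10, of which 12 and 9 also held Col1a1. Mylk, a kinase of contractile cells, did so in 9 libraries, 8 of them with Acta2. All 12 libraries with Acta2 held Sparc, a matrix-binding glycoprotein, beside 23 of all 32 P05 libraries. Of these 12, 7 held Sox10, beside 15 of all 32. Csf1r reached that level in 13 libraries, all 7 with Ptprc among them and 5 with Col1a1. The 7 libraries with Ptprc were 4 of TENA2483, 1 of TENA2517 and 2 of TENA2524, and of the 16 with Col1a1 only 1 was of TENA2517. These counts are over pools of few cells, so a gene shared by a library need not be shared by a cell.

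**Figure D4:**
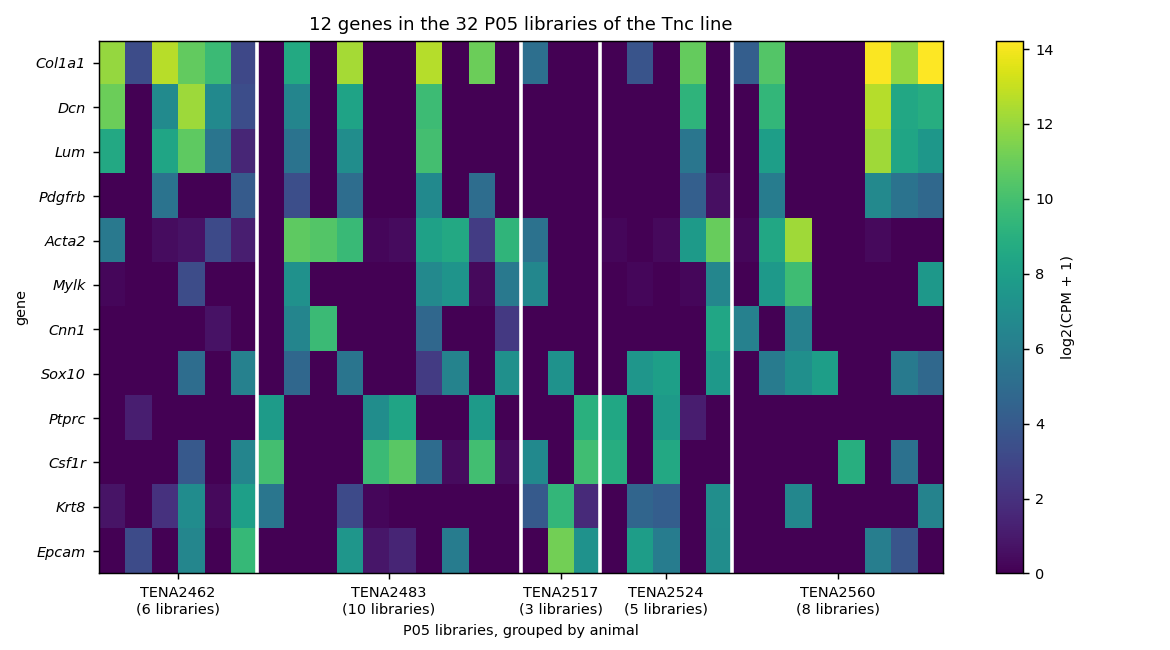
Levels of 12 genes in the 32 P05 libraries, as log2(CPM + 1) without scaling factors, with 1 column per library, grouped by mouse between white lines. Dcn, Lum and Pdgfrb are highest in columns that also hold Col1a1, Ptprc reaches 10 CPM in columns of TENA2483, TENA2517 and TENA2524 alone, and 3 columns stay below 10 CPM for Col1a1, Acta2, Ptprc and Krt8.

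Lists of general cell state gave no call. Of 18 cell cycle, 12 interferon-stimulated, 8 MHC class I, 13 hypoxia and glycolysis and 9 immediate early genes 0 were called, with medians of -0.04, -0.75, -0.06, -0.44 and 0.99. At an unadjusted p below 0.05 they held 1 gene higher and 1 lower, 0 and 0, 0 and 0, 0 and 2, and 0 and 0. Over all 33768 genes tested, 2358 were higher and 2119 lower at that p. Top2a, a topoisomerase of dividing cells, lay higher in 5 of 5 mice, with 4.78, 3.46, 16.9, 3.70 and 21.1 CPM in P05 and 0.825, 2.62, 0.0178, 1.35 and 1.56 CPM in P18 (adjusted p = 0.332). Mki67 had 0.588, 10.1, 1.70, 0.0649 and 0 CPM in P05 and 0.192, 0.0625, 0.497, 3.19 and 0.367 CPM in P18. Ccnb1 had 0, 0, 5.59, 0 and 9.79 CPM in P05 and 0.987, 1.87, 0.124, 0.992 and 0.978 CPM in P18. The interferon-stimulated genes Ifit1 and Ifit3 were at 0 in every P05 mouse but TENA2483, and Isg15 had 0, 16.3, 9.76, 0 and 20.6 CPM in P05 and 11.0, 18.2, 27.1, 17.6 and 16.9 CPM in P18. The class I genes overlapped, with H2-K1 at 473 to 1124 CPM in P05 and 378 to 1405 CPM in P18, H2-D1 at 1066 to 3541 CPM in P05 and 592 to 2256 CPM in P18, and their light chain B2m at 868 to 1989 CPM in P05 and 845 to 2146 CPM in P18. Of the 9 immediate early genes, which dissociation of a tissue can raise, 1 lay wholly above P18 in P05, beside 1.19% of all genes tested. In 5 of 5 mice 2 of the 9 were higher, beside 716 of all 33768 genes. Fos, Jun and Fosb overlapped between the populations. Fos had 711 to 3129 CPM in P05 and 407 to 1219.9 CPM in P18. Jun had 299.9 to 1540.5 CPM in P05 and 140.2 to 776 CPM in P18. Fosb had 65.2 to 428 CPM in P05 and 13.5 to 157 CPM in P18. The glucose transporter gene Slc2a1 had 231, 126, 22.1, 908 and 90.4 CPM in P05 and 403, 389, 553, 189.7 and 705 CPM in P18, and the glycolytic genes Hk2 and Pfkp overlapped between P05 and P18.

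Of the called genes 84 higher and 58 lower were on no list. Among the higher ones named by the smallest adjusted p, 4 are genes of myeloid cells and of their immune receptor signalling. Syk, a kinase downstream of these receptors, had 1.03, 9.54, 73.6, 266 and 4.35 CPM in P05 and 0 reads in P18 (a log2 fold change of at least 12.34, adjusted p = 0.0277). Ncf4, a subunit of the phagocyte oxidase, had 0.0735, 98.3, 76.1, 178 and 16.0 CPM in P05 (a log2 fold change of at least 12.67, adjusted p = 0.0277), Ms4a7 4.11, 201, 57.6, 342 and 18.0 CPM (a log2 fold change of at least 13.50, adjusted p = 0.0277) and Nfam1 6.47, 10.8, 15.0, 84.7 and 7.20 CPM (a log2 fold change of at least 10.98, adjusted p = 0.0277), all with 0 reads in P18. The phospholipid transfer protein gene Pltp, which overlaps Ctsa, had 6.98, 118, 130.4, 156 and 63.9 CPM in P05 against 3.52, 10.7, 5.82, 6.99 and 7.30 CPM in P18 (a log2 fold change of 3.58 ± 0.70, adjusted p = 0.024). Syk, Ncf4, Ms4a7 and Pltp were low in TENA2462, as Ptprc was. Without the Ptprc libraries Syk, Ncf4, Ms4a7 and Nfam1 were not called (adjusted p = 0.104, 0.076, 0.14 and 0.0624), with log2 fold changes of 9.92, 12.78, 12.10 and 12.14.

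The other 5 genes named by that rule have other roles. Hoxa7, a homeobox gene, had 12.9, 8.96, 27.4, 26.2 and 2.59 CPM in P05 (a log2 fold change of at least 10.18, adjusted p = 0.0275), the neurotrophin receptor gene Ntrk3 0.147, 23.8, 9.19, 13.8 and 25.0 CPM (a log2 fold change of at least 10.70, adjusted p = 0.0277) and the protocadherin gene Pcdh7 24.3, 15.6, 0.0947, 11.0 and 10.8 CPM (a log2 fold change of at least 10.25, adjusted p = 0.0325), with 0 reads of any in P18. Rnase4, a secreted ribonuclease gene that overlaps Ang on the same strand, had 483, 229.8, 11.1, 205 and 139 CPM in P05 against 1.58, 1.46, 0.533, 0 and 0.622 CPM in P18 (a log2 fold change of 8.08 ± 1.64, adjusted p = 0.0277). Lars2, the mitochondrial leucyl-tRNA synthetase gene, had 997, 1188, 1720.1, 1080.2 and 754 CPM in P05 against 81.7, 339, 164, 315 and 134 CPM in P18 (a log2 fold change of 2.68 ± 0.51, adjusted p = 0.0232). Relative to its level, its spread over P05 mice was the smallest of these 10 genes. Lars2 reached 10 CPM in all 32 P05 libraries and in 54 of 55 P18 libraries.

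Among the lower ones, Mapk13, a p38 kinase of epithelia, had 0, 0, 0.474, 0 and 0 CPM in P05 against 28.2, 51.9, 78.3, 43.2 and 64.6 CPM in P18 (a log2 fold change of -9.78 ± 1.57, adjusted p = 0.0107). The other 8 beside Plet1os had 0 reads in P05 in all 5 mice. Slc5a1, a sodium-glucose transporter gene, had 4.61, 17.1, 17.9, 12.5 and 25.4 CPM in P18 (a log2 fold change of -9.26 or lower, adjusted p = 0.0277), Bcl2l14, a BCL2-family gene, 5.97, 40.2, 32.4, 32.2 and 34.3 CPM (a log2 fold change of -10.12 or lower, adjusted p = 0.0277) and Car8, a carbonic anhydrase-related gene, 10.4, 27.2, 25.4, 5.26 and 26.4 CPM (a log2 fold change of -9.46 or lower, adjusted p = 0.0232). Capsl had 8.18 to 21.2 CPM in P18 (a log2 fold change of -9.22 or lower, adjusted p = 0.0277). Ddit4l, a relative of the stress gene Ddit4, had 4.50 to 9.52 CPM (a log2 fold change of -8.03 or lower, adjusted p = 0.0277). Tmem54 had 6.45 to 16.2 CPM in P18 (a log2 fold change of -8.83 or lower, adjusted p = 0.0107), and Hpca, the hippocalcin gene, which overlaps it on the opposite strand, 0.427 to 0.943 CPM (a log2 fold change of -4.74 or lower, adjusted p = 0.0277), so that reads of the pair may be shared. Cyb5d1, which overlaps Naa38, had 0.375 to 1.65 CPM in P18 (a log2 fold change of -5.04 or lower, adjusted p = 0.0232).

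P05 was also set against P15, the GFP-positive, EpCAM-negative population, which asks how the EpCAM-negative cells of the 2 colours differ. P15 had 12 passed libraries from 3 of the mice, 6 from TENA2483, 5 from TENA2517 and 1 from TENA2524, and this comparison shares the P05 sums with that against P18. In P05 41 genes (0.121%) were called higher and 5 (0.0148%) lower than in P15, and 0 genes were called higher both against P15 and against P18. Without TENA2524 the count was 2 higher and 1 lower, without TENA2462 11 and 0, without TENA2560 13 and 0, without TENA2517 48 and 12 and without TENA2483 108 and 17. Epithelial genes were among the 41 although both populations are EpCAM-negative. Nfix, a nuclear factor gene, gave the smallest adjusted p, with a mean of 109 ± 63.0 CPM in P05 and 1.92 ± 1.16 CPM in P15 (SD, n = 5 and 3, edgeR adjusted p = 0.00128, log2 fold change 6.12 ± 0.83). Ehf had a mean of 64.1 ± 75.2 CPM in P05 and 0.207 ± 0.329 CPM in P15 (SD, n = 5 and 3, edgeR adjusted p = 0.00257, log2 fold change 7.67 ± 1.17), and Spint2 of 131 ± 101 CPM in P05 and 3.60 ± 5.46 CPM in P15 (SD, n = 5 and 3, edgeR adjusted p = 0.0277, log2 fold change 5.03 ± 1.01). For both the P05 mice spread widely. Plet1 had a mean of 127 ± 144 CPM in P05 and 0 reads in P15 (SD, n = 5 and 3, edgeR adjusted p = 0.00257), and Wfdc18 of 659 ± 832 CPM in P05 and 0.0882 ± 0.0991 CPM in P15 (SD, n = 5 and 3, edgeR adjusted p = 0.00486). Tgfb2, the gene of a TGF-beta ligand, had a mean of 33.0 ± 12.2 CPM in P05 and 0.207 ± 0.303 CPM in P15 (SD, n = 5 and 3, edgeR adjusted p = 0.0417, log2 fold change 6.78 ± 1.42), and Eln of 509 ± 369 CPM in P05 and 0.0347 ± 0.06 CPM in P15 (SD, n = 5 and 3, edgeR adjusted p = 0.0417). Ptprc reached 10 CPM in 7 of 32 P05 libraries and in 12 of 12 P15 libraries, and the part of leukocytes in this difference was not tested.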

How the data were processed

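The authors deposited a table of raw read counts per gene and library, made with STAR, SAMtools and featureCounts of the Subread package on mm10, per the submitters' processing notes. Versions, annotation and strand setting were not given in the sources used here. All 55450 gene IDs matched GENCODE M21, whose coordinates are printed. Only libraries that passed the deposited quality label entered, and failed libraries and 17 empty wells were left out.

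Counts were summed per mouse and population. The 43 sums of the 335 passed libraries shared 1 edgeR 4.0.16 fit (limma 3.58.1, R 4.3.3) with filterByExpr, TMM scaling and mouse as a block, so that the spread is estimated over all populations. Both populations of a mouse come from the same animal, which is where the pairing comes from, and were sequenced in the same lane. Whether the 5-cell pools of a mouse are from separate sorts is not given, and mice are the replicates. Alternatives included DESeq2 1.42.0, RLE scaling, no filter and leaving out each mouse. The edgeR test was tested on simulated data with known changes. A gene with 0 reads in a population has a bound on its fold that sets 3 counts over the pooled sums, and a gene with 1 to 3 counts has an exact 95% binomial interval. Intervals and bounds cover counting error only.

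The 37 gene lists, 392 genes in all, and the choice of populations were made with earlier results of these data known. Named are every called gene of a list, the first 3 genes of each list, the 10 higher and 10 lower called genes outside the lists with the smallest adjusted p that moved the same way in 5 of 5 mice, and 6 sort and lineage genes. Of these, 1 gene is not reported here.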

Additional observations from a re-analysis of the deposited data

Results flagged for a closer look

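The check for a mouse far from the other 4 covered the called list genes, the sort and lineage genes and the median number of genes per library. The other named genes were not checked. Among 96 groups of 5 mice, 1 for each population of each of these, 21 held such a mouse, where chance alone flags about 1 in 20 groups. In 11 of the 21, 4 P18 mice had 0 reads, so that any read in the fifth is flagged and that rate does not apply. In P05 of TENA2517, Bgn, Col1a2, Col3a1, Col6a1, Col6a2 and Mfap5 were at 0 CPM and Mfap4 at 0.189 CPM, far below the other 4 P05 mice. That sum is of 3 libraries, the fewest of the 5 mice, and the part of this number in these values was not tested. In P05 of TENA2462, Cldn4 stood at 31.4 CPM while the other P05 mice were at 0 to 0.232 CPM, and in P05 of TENA2524 Spint1 stood at 1.69 CPM while the others were at 0 to 0.147 CPM.

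In P18 of TENA2560, Col5a2 stood at 1.85 CPM while the other P18 mice were at 0 to 0.302 CPM. For 11 other genes that are higher in P05, 1 P18 mouse alone held reads. Mfap5 stood at 0.0111 CPM in TENA2560, and Col3a1 at 0.764 CPM and Itgam at 0.0178 CPM in TENA2517. TENA2524 held Aspn at 0.0363 CPM and Fcer1g at 0.0726 CPM, and TENA2462 held Bgn at 0.0589 CPM. TENA2483 held Col15a1, Rcn3 and Tgfbi at 0.0208 CPM each, Coro1a at 0.0417 CPM and Igf1 at 0.0625 CPM.

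Col1a1 and Acta2 were also read in P05 libraries that failed the authors' quality control. Of 28 failed P05 libraries, 4 had Col1a1 at 10 CPM or more and 3 had Acta2, against 0 of 17 empty wells for both. The failed libraries held 32340 to 5570094 counts and the empty wells 0 to 256675, with a median of 19. In a well of so few counts 1 read passes 10 CPM, so that neither a 0 nor a gene at that level tells much. Of 32 passed P05 libraries, 16 had Col1a1 and 12 had Acta2 at that level. Tnc reached it in 0 of the 28 failed libraries. Of the empty wells, 2 reached 10 CPM for Csf1r and 1 each for Sparc, Krt8, Epcam, Ptprc and Pecam1.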

How the results depend on the processing

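All 184 called genes kept their direction under every alternative in which they were tested, except Dcstamp, which had 0 reads in both populations once the 7 P05 libraries with Ptprc were left out. The number of calls moved widely. Against P18, where 119 genes were higher and 65 lower in P05, a fit of P05 and P18 alone gave 2 higher and 0 lower, a fit of the Tnc line 214 and 222, DESeq2 2704 and 1860, voom with quality weights 7275 and 2340, libraries of equal weight 49 and 35, sums of at least 3 libraries 255 and 392, and failed libraries added 405 higher. Leaving out 1 mouse gave 0 to 55 higher and 0 to 31 lower. Without the replicate block, which pairs populations of a mouse, 339 were higher and 171 lower.

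Against P15, where 41 genes were higher and 5 lower in P05, RLE scaling gave 20 lower, the Tnc line 88 higher and 24 lower, DESeq2 4564 and 1087, voom 572 and 332, libraries of equal weight 3 lower, leaving out Ptprc libraries 8 lower, failed libraries added 88 and 2, and sums of at least 3 libraries 83 and 13. Leaving out 1 mouse gave 2 to 108 higher and 0 to 17 lower, and without the replicate block 154 were higher and 57 lower. The cause of these moves was not tested. The difference in genes per library stayed between -7322 and -6182 when 1 mouse was left out, and was -5668 for genes with at least 10 counts.

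Of the 4 fibrillar collagens called, leaving out Ptprc libraries gave 5, and the 2 macrophage markers called became 0. Krt8 was not called with RLE scaling, with no filter or without Ptprc libraries. P05 sums held fewer counts than those of P18. With 5 mice an adjusted p near the threshold can be lost with 1 mouse.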

Other observations

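Genes in this section were chosen after their values were seen, and all are called between P05 and P18, with all libraries in, by the same edgeR fit with Benjamini-Hochberg adjustment. The myeloid genes of P05 reached beyond the marker list. Cybb, the membrane subunit of the phagocyte oxidase, had 0.294, 334, 46.7, 462 and 0 CPM in P05 against 0 to 0.0147 CPM in P18 (adjusted p = 0.0411). Cd86, a costimulatory ligand of antigen-presenting cells, had 0, 184, 189, 411 and 10.9 CPM in P05 and 0 reads in P18 (adjusted p = 0.0325). Apoe, an apolipoprotein of macrophages, had 0, 20942, 3831, 36394 and 581 CPM in P05 against 1.34, 13.2, 10.2, 4.27 and 6.59 CPM in P18 (adjusted p = 0.0325). All 3 were low in TENA2462. The chemokine genes peaked in different mice. Ccl3 had 0, 66.7, 436, 200.5 and 104 CPM in P05 against 0 to 0.0242 CPM in P18 (adjusted p = 0.0334), while Ccl8 had 84.3, 0.539, 0.189, 0 and 313 CPM in P05 and 0 reads in P18 (adjusted p = 0.0495). Without the P05 libraries with Ptprc none of Cybb, Cd86, Apoe, Ccl3 and Ccl8 was called (adjusted p = 0.301, 0.0957, 0.109, 0.303 and 0.0862). Their log2 fold changes in that fit were 6.22, 11.78, 6.21, 9.01 and 13.02. Ccl8 was high in TENA2462 and TENA2560, which had 0 P05 libraries with Ptprc at 10 CPM or more.

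Cthrc1, Sulf1 and Thbs4, stromal genes outside the lists, had 0 reads in P05 of TENA2517, as Col1a2, Col3a1, Col6a1, Col6a2 and Col8a1 did. Cthrc1, a secreted protein of wound and tumour stroma, had 805, 91.5, 0, 6.17 and 182 CPM in P05 against 0 to 0.25 CPM in P18 (adjusted p = 0.0232). Sulf1, a sulfatase that edits heparan sulfate, had 331, 22.0, 0, 22.1 and 42.8 CPM in P05 and 0 reads in P18 (adjusted p = 0.0277). Thbs4, a thrombospondin, had 10.6, 1161, 0, 375 and 9.39 CPM in P05 and 0 reads in P18 (adjusted p = 0.0325), most of it in TENA2483 and TENA2524. Lrp1, an endocytic receptor, was above P18 in all 5 mice, with 264, 148, 33.8, 205 and 236 CPM in P05 against 0 to 0.479 CPM in P18 (adjusted p = 0.0442).

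Epithelial genes outside the lists were lower. Ceacam1, an adhesion molecule, had 23.5, 5.04, 17.0, 11.9 and 0.0332 CPM in P05 against 651, 494, 523, 201 and 754 CPM in P18 (adjusted p = 0.0325). Fermt1, which encodes the kindlin of epithelia, had 0 reads in P05 and 21.3, 11.4, 9.11, 40.7 and 15.3 CPM in P18 (adjusted p = 0.0459). Scnn1b, a subunit of the epithelial sodium channel, had 0 reads in P05 and 4.76, 13.7, 3.25, 6.95 and 18.9 CPM in P18 (adjusted p = 0.0463). The smallest adjusted p of all belonged to Gm26917, a predicted gene, with 2372, 573, 1357, 918 and 1221 CPM in P05 against 153, 105, 124, 65.0 and 297 CPM in P18 (adjusted p = 0.0068), and the predicted gene Gm10800 had 1293, 269, 120.5, 320.0 and 168 CPM in P05 against 39.6, 19.1, 8.84, 4.14 and 12.4 CPM in P18 (adjusted p = 0.0325).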
